A study of Arabidopsis thaliana with 21 samples.

Results

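Of the 21 libraries of this Arabidopsis thaliana series, 7 were compared here: 3 libraries of cells sorted from the line pNAC57::2GFP pCALS7::H2B-RFP (NAC57 1, 2 and 4, numbered as in the sample titles) and 4 of cells sorted from the line pCVP2::DBOX-3YFP (CVP2-DBOX 1 to 4). They were chosen by the line label alone, and genes of the 5 nuclear chromosomes were compared. All libraries came from roots of seedlings grown for 5 days, pooled, digested to protoplasts (cells without walls) and sorted for fluorescence. Both lines carry reporter transgenes and no mutation is named for either. The first carries GFP behind the promoter of NAC057 and, behind the promoter of the callose synthase gene CALS7, a red fluorescent histone H2B. The second carries YFP joined to a destruction box behind the promoter of CVP2. Each construct is represented by a single line, so promoter, destruction box, fluorophore and handling cannot be told apart. The colour gated in the NAC57 line and the cyclin that gave the destruction box are not stated. Nor is it stated whether the libraries of a line came from separate batches of plants. The p-values therefore measure only the spread between libraries, which the main edgeR fit estimated over all 21 libraries of 6 lines. AT4G37490, a B-type cyclin gene that may collect reads of the destruction-box reporter, was left out of every count.

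The protophloem sieve elements are the first conducting cells of the phloem to mature in the root. Each is made in a single cell file, in which cells divide near the tip, stop dividing, elongate, deposit callose at the future sieve plates and finally lose the nucleus while staying alive beside a companion cell. CVP2, a phosphoinositide phosphatase, acts early in this file, whereas the MYB-type regulator APL and the NAC factors NAC045 and NAC086 act late and switch on the degradation of the nucleus. A destruction box is the short part of a cyclin by which the anaphase-promoting complex marks a protein for degradation as mitosis ends. Genes used at G2 and mitosis in plants share a promoter element, the mitosis-specific activator, which MYB3R proteins bind, and genes of DNA replication often carry E2F sites. In an endocycle the DNA is copied again without mitosis, and the CCS52A activators of the anaphase-promoting complex and the KRP and SIAMESE inhibitors of cyclin-dependent kinases promote that switch.

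Levels are given in CPM, read counts scaled to a common library size by TMM. They are not divided by gene length and so compare libraries, not genes. Values are listed in 1 order throughout, NAC57 1, 2 and 4 and then CVP2-DBOX 1 to 4. Differences are NAC57 minus CVP2-DBOX on the log2 scale (n = 3 and 4). The standard error after ± was derived from the difference and its test statistic in the edgeR fit of all 21 libraries. It is not the scatter within the lines compared. Each library held 26117515 to 32519005 counts (NAC57) or 33810116 to 36198012 (CVP2-DBOX), and 20416 to 22103 against 25088 to 28134 genes had a count. Mitochondrial genes took 0.374% to 0.646% of the counts in NAC57 libraries, against 1.36% to 1.85% in CVP2-DBOX libraries, and plastid genes 0.0220% to 0.0362% against 0.0833% to 0.118%. AT4G37490 read 34.5 to 46.3 CPM against 673 to 876 CPM. These quantities moved with the line, and their part in the results below was not tested.

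In the edgeR fit of all 21 libraries, 2849 of 25923 nuclear genes (11.0%) were higher in the NAC57 line at an adjusted p below 0.05, 2144 (8.27%) were lower, and 19.3% passed in either direction. The 3 libraries of one line and the 4 of the other did not overlap for 4982 genes (19.2%) that were higher and 6615 (25.5%) that were lower. The median difference over all nuclear genes was -0.25 on the log2 scale. With RLE in place of TMM scaling it was -0.43, and the calls split into 1860 higher and 2644 lower (41.3% higher, against 57.1% with TMM), so the differences of gene groups are read against the median of all genes. A fit of the 7 libraries alone, whose spread does not draw on the other 4 lines, called 4396 of 20293 genes higher (21.7%) and 4837 lower (23.8%). The plot of all genes shows the difference of each gene against its level.

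**Figure D1:**
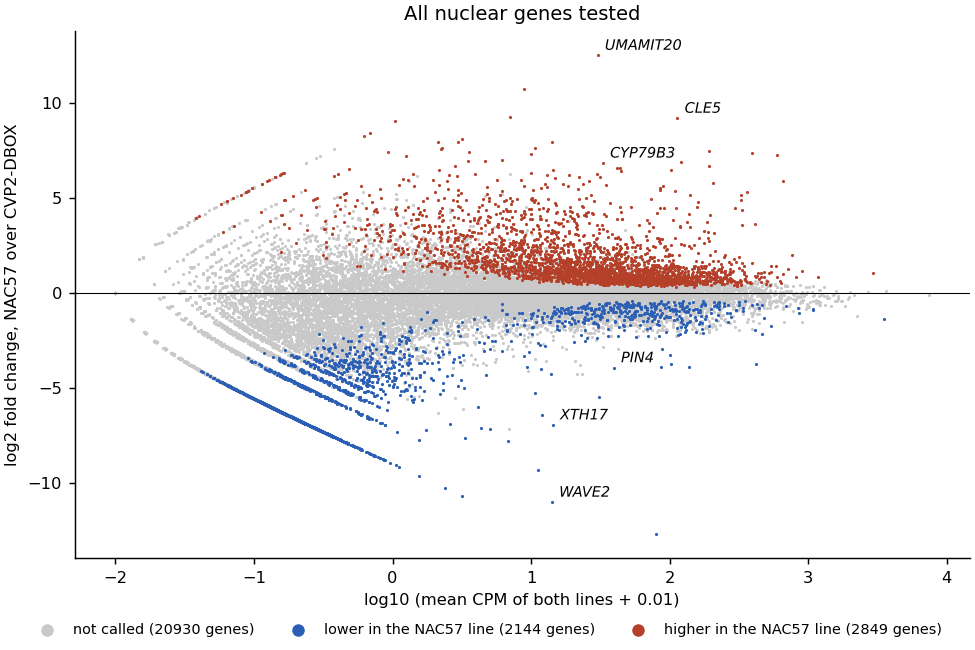
Difference between the NAC57 and CVP2-DBOX lines (log2, vertical axis) against the mean level of both lines (log10 CPM, horizontal axis) for the 25923 nuclear genes, with the 2849 genes called higher and the 2144 called lower in colour and 20930 not called in grey. The largest differences lie at low and middle levels, with UMAMIT20 and CLE5 at the top and WAVE2 at the bottom.

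Of the 6 genes whose promoters name the reporter lines of the series, NAC057 itself went against the label. It encodes a NAC transcription factor and read 31.9, 17.5 and 13.7 CPM against 55.2, 57.8, 58.2 and 69.2 CPM, lower in each NAC57 library than in each CVP2-DBOX library (log2 difference -1.51 ± 0.35, edgeR adjusted p = 0.00625). The first line is therefore called the line labelled NAC57, or NAC57 line for short, and every direction below rests on that label. CVP2 read 644, 538 and 534 CPM against 619.8, 601, 685 and 715 CPM, and the lines overlapped (edgeR adjusted p = 0.550). CALS7 read 281, 120.2 and 121 CPM against 93.5, 128, 144 and 138 CPM. NAC57 1 stood above the other 6 libraries, the difference was 0.47 (edgeR adjusted p = 0.502), and it was -0.06 without that library. PEAR1, a DOF transcription factor of the early sieve element, was lower at 323, 278 and 329 CPM against 442, 474, 459 and 521 CPM (log2 difference -0.61 ± 0.16, edgeR adjusted p = 0.0128), a call that was lost without NAC57 2 (log2 -0.54). S32 (GATA20) read 801, 761 and 804 CPM against 568, 609.5, 597 and 685 CPM (edgeR adjusted p = 0.229). NAC073 read 2.39, 2.49 and 1.36 CPM against 0.206, 0.989, 0.0486 and 0.748 CPM (edgeR adjusted p = 0.0564), and neither passed.

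Genes of G2 and mitosis were lower in the NAC57 line as a whole group. Of 32 members, 10 fell by the test, against 8.27% of all genes, and 22 did not pass. The median difference was -1.55, against -0.25 for all genes, and in each of the 32 genes every NAC57 library lay below every CVP2-DBOX library, against 25.5% of all genes. Summed over the list, the level was 2141 to 2485 CPM in the NAC57 libraries and 5534 to 8312 CPM in the CVP2-DBOX libraries. The members fall into cyclins with their kinases, mitotic kinases with the spindle checkpoint, and the cytoskeleton of spindle and phragmoplast. In bulk samples, fewer cells of a type and less RNA per cell cannot be told apart.

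Of the 10 genes that fell, the promoters of the 4 with the lowest adjusted p are shown, to display the element common in this group. Each line gives the 150 bases upstream of the annotated start, 5′ to 3′ on the strand of the gene, read from the RefSeq TAIR10.1 assembly, with capitals marking the mitosis-specific activator core AACGG or its complement CCGTT. None of the 4 stretches overlaps another annotated gene.
CYCB1;3, chr3:3627274-3627423, minus strand: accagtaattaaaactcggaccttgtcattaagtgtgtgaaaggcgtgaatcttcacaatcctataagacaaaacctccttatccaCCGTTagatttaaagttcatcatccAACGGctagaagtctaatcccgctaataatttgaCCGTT
AUR1, chr4:15842293-15842442, plus strand: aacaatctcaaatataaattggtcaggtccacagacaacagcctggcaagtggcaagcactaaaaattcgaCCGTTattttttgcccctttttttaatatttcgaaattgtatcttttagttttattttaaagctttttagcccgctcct
PLE, chr5:20964538-20964687, minus strand: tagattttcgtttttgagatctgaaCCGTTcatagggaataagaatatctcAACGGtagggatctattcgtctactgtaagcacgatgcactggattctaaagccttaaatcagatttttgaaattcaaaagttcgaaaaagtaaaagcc
AUR2, chr2:11038192-11038341, minus strand: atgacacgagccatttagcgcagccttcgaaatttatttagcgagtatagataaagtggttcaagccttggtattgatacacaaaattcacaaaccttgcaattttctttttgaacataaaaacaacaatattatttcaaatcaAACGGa

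CYCB1;3 holds the core 3 times within these bases, PLE 2 times, AUR1 and AUR2 once each. Searched on both strands from 250 bases before to 50 after the start, AACGG was present in 23 of the 32 promoters of the list (71.9%), in 24.7% of 27443 protein-coding promoters and in 36.4% of the 22 promoters of DNA replication genes. The longer form CCAACGG, which contains AACGG, was in 31.2% of the list and 1.85% of all promoters. An E2F core, TTCCCGC or TTGGCGC, was in 0 of the 32 promoters, in 14 of the 22 promoters of DNA replication genes (63.6%) and in 2.41% of all promoters. Within the list, 7 of the 10 genes that fell and 16 of the other 22 carried the core. Over all genes the shares were near the background, 25.0% of 1577 promoters of genes called lower and 24.6% of 2803 called higher. These are matches of letters, not measured binding sites.

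Among the cyclins and kinases, CYCB1;3, a B1-type cyclin, read 57.0, 68.9 and 56.5 CPM against 302, 215, 251 and 233 CPM (log2 difference -2.04 ± 0.30, edgeR adjusted p = 0.000266). CDKB2;2, a plant-specific kinase of G2 and mitosis, read 32.8, 27.2 and 27.5 CPM against 109, 83.9, 95.3 and 82.9 CPM (log2 difference -1.67 ± 0.38, edgeR adjusted p = 0.00585). Its relative CDKB2;1 read 83.2, 72.5 and 64.7 CPM against 369, 232, 261 and 221 CPM (log2 difference -1.88 ± 0.60, edgeR adjusted p = 0.0357). CYCB2;1, another mitotic cyclin, read 37.4, 33.2 and 32.1 CPM against 97.8, 77.6, 73.9 and 64.3 CPM (log2 difference -1.195 ± 0.38, edgeR adjusted p = 0.0342). CVP2-DBOX 1 was the highest library for all 4 genes, and the lowest CVP2-DBOX library still lay above the highest NAC57 library.

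The Aurora kinases act on chromosomes and spindle. AUR1 read 74.1, 60.8 and 66.7 CPM against 239, 176, 196 and 179 CPM (log2 difference -1.56 ± 0.26, edgeR adjusted p = 0.000590). AUR2 read 57.7, 54.8 and 48.3 CPM against 149, 97.0, 125 and 109 CPM (log2 difference -1.16 ± 0.25, edgeR adjusted p = 0.00394). AUR3 read 18.5, 14.8 and 17.6 CPM against 68.7, 46.2, 65.1 and 52.8 CPM without passing (edgeR adjusted p = 0.101). All 3 were lower in every NAC57 library. BUBR1, of the spindle checkpoint, read 71.5, 62.6 and 52.7 CPM against 236, 159.7, 173 and 142 CPM (log2 difference -1.51 ± 0.41, edgeR adjusted p = 0.0169). Of the cytokinesis genes, PLE, a microtubule bundler of spindle and phragmoplast, read 88.3, 88.1 and 80.7 CPM against 319, 197, 254 and 219.5 CPM (log2 difference -1.53 ± 0.31, edgeR adjusted p = 0.00270). PAKRP1, a phragmoplast kinesin, read 48.1, 41.2 and 45.5 CPM against 119, 78.1, 101 and 97.6 CPM (log2 difference -1.14 ± 0.31, edgeR adjusted p = 0.0174). KN, the syntaxin of the cell plate, read 80.4, 78.9 and 66.3 CPM against 374, 243, 317 and 289.7 CPM, lower in each NAC57 library, without passing (edgeR adjusted p = 0.0961). CCS52B, an activator of the anaphase-promoting complex that peaks at mitosis, read 259, 229.5 and 215 CPM against 523, 345, 459 and 444 CPM (log2 difference -0.92 ± 0.26, edgeR adjusted p = 0.0199).

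Calls of this group changed when single libraries were left out and between fits. Why the fits differed was not tested. Leaving out 1 library ended the calls of BUBR1 (without NAC57 2 or 4, log2 -1.52 to -1.41), PAKRP1 (without NAC57 2 or 4, log2 -1.15 to -1.08), CCS52B (without NAC57 2 or 4, log2 -0.90 to -0.86), CYCB2;1 (without NAC57 1, 2 or 4 or CVP2-DBOX 1, 2 or 3, log2 -1.26 to -1.07) and CDKB2;1 (without any 1 of the 7 libraries, log2 -1.98 to -1.70). In the fit of the 7 libraries alone all 32 genes fell, against 23.8% of all genes, with adjusted p between 1.65e-05 and 0.00343 and a median of -1.56.

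**Figure D2:**
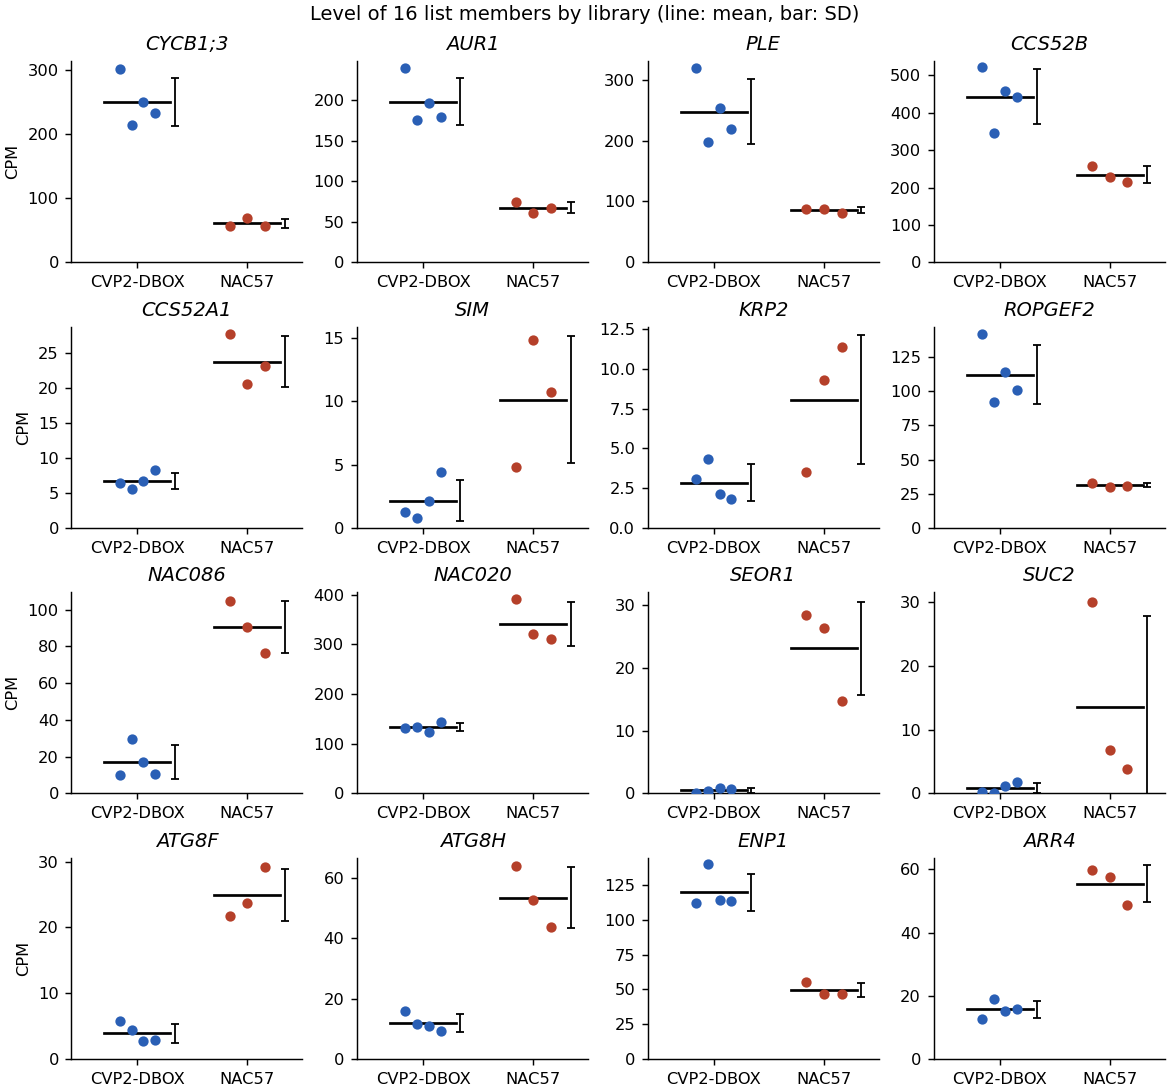
Level in CPM (vertical axes, each from 0) of 16 list members in the 3 NAC57 and 4 CVP2-DBOX libraries, with a line at each mean and a bar for the SD. Mitotic genes such as CYCB1;3, AUR1 and PLE lie lower in the NAC57 libraries, and CCS52A1, NAC086, NAC020, SEOR1, ATG8F, ATG8H and ARR4 lie higher.

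Genes of DNA replication gave no call in the fit of all libraries. Of 22 members, 0 rose and 0 fell in edgeR, with 0 higher and 1 lower at an unadjusted p below 0.05. DESeq2 called 0 higher and 1 lower, and limma voom 2 higher and 3 lower. The fit of the 7 libraries alone called MCM5 higher and 4 genes lower (against 21.7% and 23.8% of all genes). The median difference was 0.13 and lay between -0.14 and 0.45 under the alternatives, so its sign changed between them. MCM2, a subunit of the replicative helicase, read 143, 112 and 155 CPM against 101, 151, 87.7 and 89.2 CPM. RNR1, the large subunit of ribonucleotide reductase, read 142, 98.5 and 154 CPM against 109.9, 208, 128 and 142 CPM. MCM5 read 128, 110.0 and 163 CPM against 64.9, 111, 61.5 and 63.0 CPM. CVP2-DBOX 2 was the highest CVP2-DBOX library in all 3. Replication genes summed to 1059 to 1417 CPM against 1018 to 1723 CPM, ranges that overlap, where the mitotic genes above did not. Those 4 genes, PCNA2, CDT1B, TSO2 and CDC45, were picked out here after their values were seen. Of the 22, they were the members lower in every NAC57 library, where 25.5% of all genes were, so the count is below the background. PCNA2, the sliding clamp, read 40.0, 30.4 and 33.2 CPM against 54.0, 79.8, 53.7 and 52.5 CPM. CDT1B, a licensing factor, read 46.3, 30.9 and 38.4 CPM against 88.7, 86.3, 79.4 and 85.7 CPM. Whether the mitotic and the replication genes differ from each other was not tested.

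The 9 D-type cyclins, which carry cells from G1 into S phase, gave 0 calls in edgeR and 0 higher and 1 lower at an unadjusted p below 0.05. DESeq2 called 0 higher and 1 lower and limma voom 1 higher and 2 lower, and the median was 0.11 (-0.07 to 0.29 under the alternatives). CYCD3;2 read 118, 84.0 and 113 CPM against 255, 307, 243 and 199.7 CPM (edgeR adjusted p = 0.0847). CYCD3;3 read 73.8, 56.7 and 84.5 CPM against 234, 209.5, 214 and 193 CPM (edgeR adjusted p = 0.202). Both were lower in every NAC57 library. CYCD6;1, known for formative divisions in the root, read 109, 97.3 and 111 CPM against 62.3, 69.8, 61.5 and 68.0 CPM, the opposite order, without passing (edgeR adjusted p = 0.163). CYCD3;2 and CYCD3;3 passed as lower in the fit of the 7 libraries. There 1 member of the list was higher and 2 were lower, against 21.7% and 23.8% of all genes.

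Of 23 histone genes, 2 fell, a share of 8.70% beside 8.27% of all genes, and 21 did not pass. Both entered the list as linker histone H1 genes and are annotated in RefSeq as winged-helix DNA-binding proteins. AT1G06760 read 346, 348 and 411 CPM against 522, 519, 571 and 643 CPM (log2 difference -0.62 ± 0.17, edgeR adjusted p = 0.0175). AT2G30620 read 173, 154 and 178 CPM against 227, 246, 282 and 296 CPM (log2 difference -0.64 ± 0.17, edgeR adjusted p = 0.0137). Both calls rested on single libraries, ending for AT1G06760 (without NAC57 1 or 2 or CVP2-DBOX 4, log2 -0.58 to -0.55) and AT2G30620 (without NAC57 2, log2 -0.58). The core histone H2B gene HTB2 read 306, 280.2 and 310.1 CPM against 321, 362, 336 and 340.3 CPM. HTB4, another H2B gene, read 326, 281 and 346 CPM against 374, 386, 379.9 and 409 CPM, and neither passed in the fit of all libraries. Reads of the H2B-RFP transgene of the NAC57 line cannot be told apart from those of the H2B genes, and the core histone genes have near-identical copies between which the counting could split reads. HTR12, the centromeric histone H3, read 16.6, 15.4 and 17.5 CPM against 30.8, 31.3, 29.9 and 30.5 CPM (edgeR adjusted p = 0.338). In 10 of the 23 every NAC57 library lay below every CVP2-DBOX library, where 25.5% of all genes did so. The fit of the 7 libraries called 11 of the 23 lower, against 23.8% of all genes, among them HTB4 (edgeR adjusted p = 0.0307) and HTR12 (edgeR adjusted p = 0.000220).

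Activators and inhibitors linked to the exit from division and to endocycles were partly higher. Of 15 members, 5 rose (33.3%, against 11.0% of all genes), 1 fell and 9 did not pass, and the median was 0.58. CCS52A1, which promotes endocycles through the anaphase-promoting complex, read 27.6, 20.5 and 23.0 CPM against 6.37, 5.56, 6.73 and 8.25 CPM (log2 difference 1.82 ± 0.24, edgeR adjusted p = 9.85e-05). Its paralog CCS52A2 read 30.1, 24.6 and 24.6 CPM against 8.30, 14.8, 8.72 and 10.1 CPM (log2 difference 1.34 ± 0.27, edgeR adjusted p = 0.00243). Every NAC57 library lay above every CVP2-DBOX library for both, while CCS52B, the mitotic member of the same family, was lower in each.

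SIM, a SIAMESE inhibitor of cyclin-dependent kinases, was low throughout at 4.82, 14.8 and 10.8 CPM against 1.29, 0.775, 2.09 and 4.43 CPM (log2 difference 2.24 ± 0.53, edgeR adjusted p = 0.00722), and NAC57 1 came close to CVP2-DBOX 4. AT1G08180, annotated as a cyclin-dependent kinase inhibitor, read 0.797, 1.88 and 1.84 CPM against 0, 0.214, 0.170 and 0.103 CPM (log2 difference 3.59 ± 0.67, edgeR adjusted p = 0.00146). KRP2, a Kip-related inhibitor, read 3.53, 9.34 and 11.4 CPM against 3.09, 4.36, 2.14 and 1.80 CPM (log2 difference 1.50 ± 0.48, edgeR adjusted p = 0.0349). Here the lines overlapped, because NAC57 1 lay below CVP2-DBOX 2. KRP4, another Kip-related inhibitor, fell, with 16.8, 20.7 and 19.8 CPM against 33.0, 29.7, 32.5 and 33.9 CPM (log2 difference -0.76 ± 0.22, edgeR adjusted p = 0.0227). The calls ended for KRP2 (without NAC57 2 or 4 or CVP2-DBOX 1, 3 or 4, log2 1.18 to 1.55) and KRP4 (without NAC57 1, 2 or 4 or CVP2-DBOX 4, log2 -0.82 to -0.67). That of KRP2 also ended with RLE scaling and with the replicate block.

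Markers of the sieve element file itself were present in both lines. All 23 genes of the early protophloem list had a mean of at least 1 CPM in each line, and their summed level was 5902 to 7045 CPM in the NAC57 line and 6802 to 7843 CPM in the CVP2-DBOX line. Of the 23, 1 rose (BRX), 1 fell (PEAR1, above) and 21 did not pass, where 19.3% of all genes were called, and the median was -0.03 (from -0.21 to 0.02 under the alternatives). BRX, a plasma membrane protein of protophloem polarity, read 213, 182 and 178 CPM against 113, 119, 117 and 127 CPM (log2 difference 0.68 ± 0.21, edgeR adjusted p = 0.0319). The call ended with RLE scaling, with DESeq2 and without NAC57 1, 2 or 4 or CVP2-DBOX 1, 3 or 4 (log2 0.60 to 0.73). BAM3, the receptor kinase for the peptide CLE45, read 968, 836 and 953 CPM against 826, 791, 965 and 1040.4 CPM, and the lines overlapped. CLE45 read 236, 187 and 189.9 CPM against 126, 135, 124 and 129 CPM without overlap or a call (edgeR adjusted p = 0.129). OPS, a polar membrane protein that promotes sieve element differentiation, read 40.2, 30.0 and 39.7 CPM against 79.8, 56.2, 78.3 and 116 CPM (edgeR adjusted p = 0.0991).

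Late sieve element genes were partly higher in the NAC57 line. Of 18 members, 5 rose (27.8%, against 11.0%), 1 fell (NAC057, above) and 12 did not pass, and the median was 0.67. The list summed to 2886 to 3438 CPM against 1989 to 2206 CPM. The genes that rose were regulators and 1 structural gene. APL read 1126, 993 and 1021 CPM against 618, 531, 582 and 624 CPM (log2 difference 0.83 ± 0.22, edgeR adjusted p = 0.0153). NAC086 read 105, 90.7 and 76.3 CPM against 10.1, 29.8, 17.3 and 10.8 CPM (log2 difference 2.41 ± 0.38, edgeR adjusted p = 0.000398). NAC020, another NAC factor of the sieve element, read 392, 320.1 and 311 CPM against 132, 134, 123 and 144 CPM (log2 difference 1.36 ± 0.17, edgeR adjusted p = 7.85e-05), and NAC010 read 31.0, 30.9 and 21.7 CPM against 2.06, 9.60, 5.51 and 3.92 CPM (log2 difference 2.40 ± 0.42, edgeR adjusted p = 0.000919). In none of the 4 did the lines overlap, and CVP2-DBOX 2 was the highest library of its line for NAC086 and NAC010.

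SEOR1, which encodes a filament protein of mature sieve elements, read 28.3, 26.3 and 14.7 CPM against 0, 0.455, 0.874 and 0.644 CPM (log2 difference 5.53 ± 1.04, edgeR adjusted p = 0.00168). Of the 18, 13 had a positive difference and 8 were higher in every NAC57 library, where 19.2% of all genes were. The 3 of these without a call were S32 and NAC073, above, and NEN2, a relative of the exonuclease NEN4, which read 104, 85.7 and 73.6 CPM against 46.0, 59.5, 42.2 and 52.7 CPM (edgeR adjusted p = 0.0640, and 0.00286 in the fit of the 7 libraries). Some late genes followed another order. NEN4, an exonuclease of nuclear degradation, read 2.88, 0.318 and 0.139 CPM against 0.129, 8.13, 0.777 and 0.206 CPM (edgeR adjusted p = 0.520). SUS6, a sieve element sucrose synthase, read 16.6, 2.83 and 5.73 CPM against 1.96, 53.2, 8.55 and 2.86 CPM (edgeR adjusted p = 0.441). Both were highest in CVP2-DBOX 2. NAC045 read 24.1, 10.2 and 9.01 CPM against 0, 17.8, 0.413 and 0.180 CPM and was again raised in CVP2-DBOX 2 within its line (edgeR adjusted p = 0.310). Without CVP2-DBOX 2 the number that rose was 8 in place of 5. The call of APL ended with RLE scaling, with DESeq2 and without NAC57 1 (log2 0.77).

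In the list named for companion cells, the neighbours that load sugar into the sieve element, 4 of 12 members rose (33.3%, against 11.0% of all genes). None fell and 8 did not pass. The list summed to 422 to 579 CPM against 103 to 136 CPM. AHA3, a plasma membrane proton pump, made up most of that level and read 418, 326 and 425 CPM against 111, 86.0, 104 and 119 CPM (log2 difference 1.89 ± 0.37, edgeR adjusted p = 0.00207). SUC2, the sucrose transporter that defines companion cells, read 30.0, 6.88 and 3.87 CPM against 0.258, 0.134, 1.12 and 1.83 CPM (log2 difference 4.02 ± 0.95, edgeR adjusted p = 0.00766), with NAC57 1 well above the other libraries. SWEET11, a sucrose exporter, read 7.52, 43.9 and 76.9 CPM against 0.0258, 0.214, 1.53 and 3.82 CPM (log2 difference 4.93 ± 1.45, edgeR adjusted p = 0.0249). Its close relative SWEET12 read 4.57, 15.9 and 56.0 CPM against 0, 0.0535, 0.728 and 0.593 CPM (log2 difference 6.19 ± 1.52, edgeR adjusted p = 0.00939), and for both NAC57 1 was the lowest of its line. The calls ended for SUC2 (without NAC57 1, log2 2.68) and SWEET11 (without NAC57 2 or 4 or CVP2-DBOX 2 or 3, log2 4.20 to 4.98). PP2-A2 and SULTR1;3 had 0 reads in the NAC57 line, and PP2-A1, an abundant phloem lectin gene, read 0.277, 0.347 and 0.278 CPM against 0, 0, 0.0728 and 0.644 CPM. In all, 5 of the 12 were under 1 CPM on average in both lines. SUC2 was highest in NAC57 1, where SWEET11 and SWEET12 were lowest within their line. The 12 genes are therefore not read as markers of 1 cell type, and the part of companion cells in these levels was not tested.

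Genes of ribosome assembly in the nucleolus were all lower in the NAC57 line. The fit of all libraries called only ENP1 (6.67%, against 8.27% of all genes). The median of the 15 members was -1.25, and in all 15 the lines did not overlap, against 25.5% of all genes. The list summed to 1718 to 1815 CPM against 3730.4 to 4976 CPM. ENP1, a cofactor of ribosome biogenesis, read 55.3, 47.0 and 46.5 CPM against 112, 140.0, 114 and 114 CPM (log2 difference -1.27 ± 0.21, edgeR adjusted p = 0.000575). NUC-L1, a nucleolin, read 349, 367 and 313 CPM against 908, 1212, 930.4 and 893 CPM (log2 difference -1.52 ± 1.201, edgeR adjusted p = 0.390). FIB1, a fibrillarin that methylates ribosomal RNA, read 287, 273 and 279.5 CPM against 593, 721, 559.8 and 554 CPM (log2 difference -1.12 ± 0.68, edgeR adjusted p = 0.253). CVP2-DBOX 2 was the highest library for all 3. The standard errors, wider for the last pair, came from the fit that includes the other lines. In the edgeR fit of the 7 libraries alone all 15 fell, against 23.8% of all genes, with adjusted p from 3.81e-05 to 0.0119. The fit without the NAC73 line called 4, where 4412 of all 25950 genes were lower. DESeq2 called 2, where 4694 of 25923 were lower.

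Stem cell niche genes were nearly all lower. The PLETHORA proteins are AP2-type factors graded from the root tip, and WOX5 marks the quiescent centre. Of 9 members, 2 fell (22.2%, against 8.27% of all genes) and 7 did not pass, and the median was -2.93, which did not move when genes at 0 reads were set at their bounds. BBM read 4.96, 2.28 and 2.53 CPM against 37.5, 36.4, 39.5 and 38.5 CPM (edgeR adjusted p = 0.0688). PLT2 read 3.01, 5.96 and 3.39 CPM against 33.9, 28.8, 28.0 and 34.6 CPM (edgeR adjusted p = 0.0778). PLT3 read 61.6, 52.4 and 58.3 CPM against 138, 142, 114 and 106 CPM (edgeR adjusted p = 0.0684). None of the 3 passed, although the lines did not overlap. WOX5 had 0 reads against 115 and was at least 24.4-fold lower, taking 3 counts over the line as the floor (edgeR adjusted p = 0.0106). AT1G72570 had 0 reads against 53 and was at least 11.2-fold lower (edgeR adjusted p = 0.0205). Both were under 1 CPM on average in the CVP2-DBOX line as well. The call of AT1G72570 ended without NAC57 1, 2 or 4 (log2 -6.46 to -6.44), where the fitted values depend on the prior count. The fit of the 7 libraries called 8 of the 9 lower, all but ANT, against 23.8% of all genes.

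ROP guanine exchange factors switch on the small GTPases of cell polarity. ROPGEF2 fell and read 32.9, 30.1 and 30.5 CPM against 142, 91.9, 114 and 101 CPM (log2 difference -1.85 ± 0.33, edgeR adjusted p = 0.00107). ROPGEF1 rose and read 269, 259 and 288 CPM against 175, 148, 171 and 191 CPM (log2 difference 0.67 ± 0.15, edgeR adjusted p = 0.00580), a call that RLE scaling ended. ROPGEF3 read 69.7, 54.5 and 67.0 CPM against 337, 192, 286 and 264 CPM (edgeR adjusted p = 0.300), and ROPGEF5 read 44.0, 35.3 and 52.5 CPM against 152, 73.4, 119 and 107 CPM (edgeR adjusted p = 0.293). For these 2 all NAC57 libraries lay below all CVP2-DBOX libraries without a call. Of 6 members, 1 rose, 1 fell and 4 did not pass, where 11.0% of all genes rose and 8.27% fell, and the median was -1.60. The fit of the 7 libraries kept 5 of them and called 4 lower and 1 higher, against 23.8% and 21.7% of all genes.

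Autophagy genes were higher in the NAC57 line for most of the ATG8 family. Autophagy encloses cell contents in a membrane for delivery to the vacuole, and the ATG8 proteins coat that membrane. Of 16 members, 9 rose (56.2%, against 11.0% of all genes), none fell and 7 did not pass, and the median was 1.08. The list summed to 639.5 to 663 CPM against 354 to 395 CPM. ATG8F read 21.8, 23.8 and 29.3 CPM against 5.70, 4.41, 2.67 and 2.81 CPM (log2 difference 2.68 ± 0.35, edgeR adjusted p = 0.000106). ATG8H read 64.1, 52.6 and 43.8 CPM against 16.1, 11.7, 11.1 and 9.20 CPM (log2 difference 2.16 ± 0.34, edgeR adjusted p = 0.000402). ATG8E read 13.9, 21.7 and 41.8 CPM against 6.40, 2.41, 3.64 and 1.83 CPM (log2 difference 2.85 ± 0.51, edgeR adjusted p = 0.00118). The lines did not overlap in any of these, and ATG8E varied most within the NAC57 line.

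Of the 9 ATG8 genes, 7 rose, and ATG8B and ATG8G did not pass. ATG8A read 41.7, 36.0 and 34.5 CPM against 7.40, 11.1, 9.03 and 4.85 CPM (log2 difference 2.21 ± 0.42, edgeR adjusted p = 0.00175). ATG8I read 81.2, 88.3 and 83.6 CPM against 28.7, 28.9, 25.7 and 19.0 CPM (log2 difference 1.72 ± 0.33, edgeR adjusted p = 0.00175). ATG8D read 18.1, 23.3 and 27.9 CPM against 9.72, 13.4, 9.37 and 9.28 CPM (log2 difference 1.14 ± 0.35, edgeR adjusted p = 0.0299), with the lines closest to each other. Of the genes that act before or beside ATG8, ATG5, part of the conjugation machinery, read 49.7, 45.7 and 42.0 CPM against 19.2, 20.6, 19.3 and 22.7 CPM (log2 difference 1.16 ± 0.19, edgeR adjusted p = 0.000608). ATG13A, part of the initiating kinase complex, read 52.1, 49.4 and 43.1 CPM against 28.2, 25.3, 24.6 and 30.9 CPM (log2 difference 0.82 ± 0.17, edgeR adjusted p = 0.00308). Not every step was called: ATG7, the activating enzyme, read 29.1, 24.1 and 20.5 CPM against 25.6, 24.9, 22.9 and 25.7 CPM and the lines overlapped. Of the 9 calls, that of ATG8D ended with RLE scaling, with DESeq2 and without NAC57 2 or 4 or CVP2-DBOX 1, 3 or 4 (log2 0.99 to 1.14). The number that rose lay between 8 and 12 in the alternatives.

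**Figure D3:**
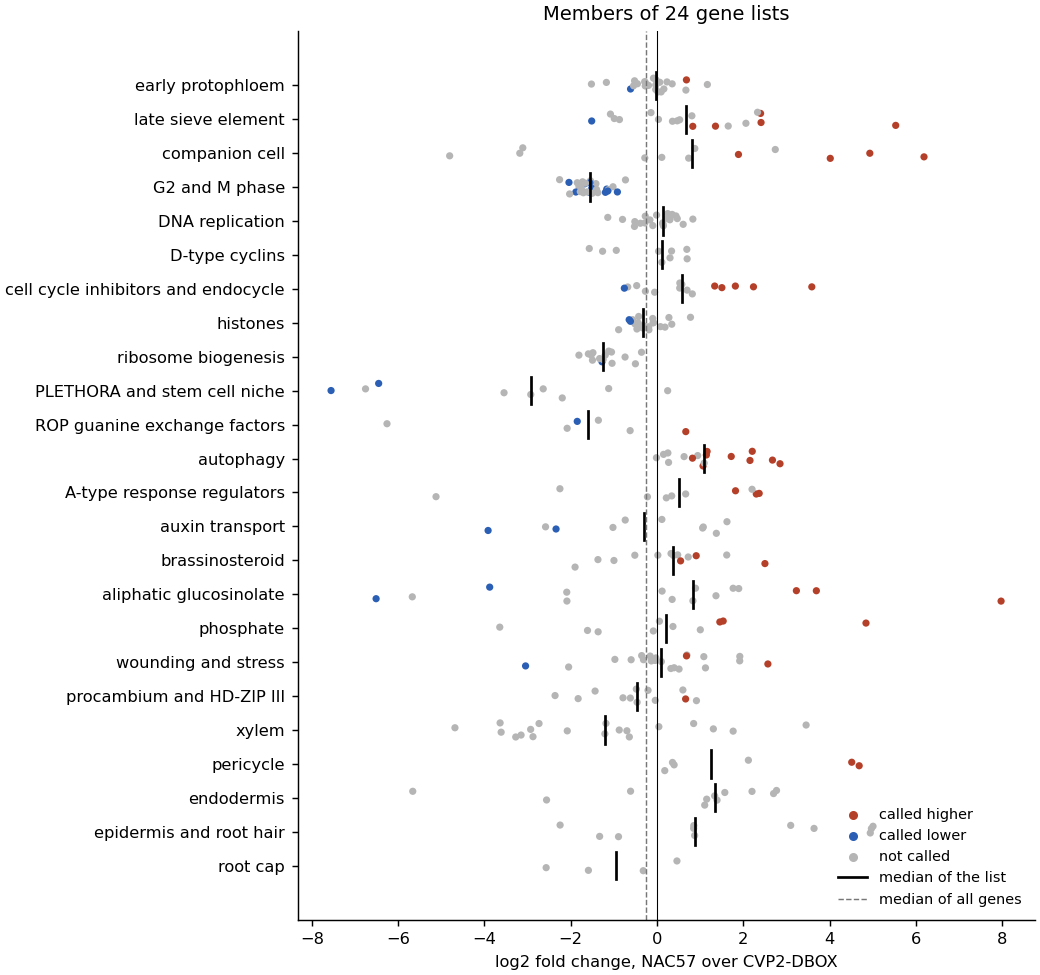
Difference between the lines (log2, NAC57 minus CVP2-DBOX, horizontal axis) of the members of 24 gene lists (rows), with a mark at the median of each list and a dashed line at the median of all genes, -0.25. The G2 and M phase and ribosome biogenesis members all lie below 0, and 15 of the 16 autophagy members lie above 0.

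Hormone genes gave a mixed picture. Of 10 A-type response regulators, which cytokinin induces and which damp its signal, 3 rose (30.0%, against 11.0% of all genes), none fell and 7 did not pass. ARR4 read 59.9, 57.6 and 48.8 CPM against 12.7, 19.0, 15.3 and 15.8 CPM (log2 difference 1.82 ± 0.25, edgeR adjusted p = 0.000128), without overlap between the lines. ARR3 read 5.58, 21.8 and 15.9 CPM against 4.41, 0.562, 2.50 and 3.69 CPM (log2 difference 2.37 ± 0.75, edgeR adjusted p = 0.0345). ARR6 read 1.49, 4.60 and 4.26 CPM against 0.928, 1.36, 0.291 and 0.206 CPM (log2 difference 2.30 ± 0.77, edgeR adjusted p = 0.0431). Single libraries ended the calls of ARR3 (without NAC57 2 or 4 or CVP2-DBOX 2, 3 or 4, log2 1.94 to 2.53) and ARR6 (without NAC57 2 or 4 or CVP2-DBOX 1, 3 or 4, log2 2.00 to 2.47).

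Of 10 auxin carriers, 2 fell (20.0%, against 8.27% of all genes), none rose and 8 did not pass. The fit of the 7 libraries kept 9 and called 3 lower and 3 higher, against 23.8% and 21.7% of all genes. The 3 higher were PIN3, PIN7 and LAX1. The efflux carrier gene PIN4 read 4.30, 3.88 and 6.56 CPM against 82.9, 81.1, 63.8 and 68.7 CPM (log2 difference -3.91 ± 1.205, edgeR adjusted p = 0.0307). The influx carrier gene LAX2 read 9.25, 7.35 and 8.62 CPM against 34.2, 74.0, 34.2 and 27.8 CPM (log2 difference -2.34 ± 0.68, edgeR adjusted p = 0.0238), with CVP2-DBOX 2 far above the rest of its line. Both calls rested on single libraries and ended for PIN4 (without NAC57 1, 2 or 4, log2 -4.18 to -3.77) and LAX2 (without NAC57 1, 2 or 4 or CVP2-DBOX 2, log2 -2.41 to -1.86). PIN3 read 35.9, 37.4 and 37.9 CPM against 16.2, 19.1, 17.4 and 17.8 CPM, higher in every NAC57 library (edgeR adjusted p = 0.186). No direction is given for the list, since its median was -0.31 as fitted and 0.06 with PIN6, which had 0 reads in the NAC57 line, set at its floor.

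Of 13 brassinosteroid genes, 3 rose (23.1%, against 11.0% of all genes), none fell and 10 did not pass. In the fit of the 7 libraries 5 were higher (against 21.7% of all genes), and BRI1, BRL1 and BKI1 were lower (against 23.8%). BES1, a transcription factor of the response, read 158, 148 and 140.2 CPM against 80.4, 69.9, 80.3 and 86.5 CPM (log2 difference 0.91 ± 0.16, edgeR adjusted p = 0.00109). Its close relative BZR1 read 138, 139.8 and 132 CPM against 105, 101, 105 and 109.8 CPM (edgeR adjusted p = 0.0826). BR6OX2, the enzyme of the last step of synthesis, read 9.18, 23.4 and 35.8 CPM against 7.30, 4.87, 2.62 and 1.31 CPM (log2 difference 2.50 ± 0.74, edgeR adjusted p = 0.0256), with NAC57 1 the lowest of its line. BIN2, the kinase that holds the response back, read 164, 186 and 169 CPM against 125, 111, 124 and 113 CPM (log2 difference 0.55 ± 0.19, edgeR adjusted p = 0.0494). The calls ended for BR6OX2 (without NAC57 2 or 4 or CVP2-DBOX 3 or 4, log2 2.02 to 2.48) and BIN2 (without any 1 of the 7 libraries, log2 0.49 to 0.59), and that of BIN2 also with RLE scaling and with DESeq2.

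Aliphatic glucosinolate genes, of the sulphur-rich defence compounds made from methionine, split: of 15 members, 3 rose (20.0%, against 11.0% of all genes), 2 fell (13.3%, against 8.27%) and 10 did not pass. SOT18, a sulphotransferase of the last core step, read 17.1, 36.96 and 37.1 CPM against 4.41, 2.35, 0.874 and 1.75 CPM (log2 difference 3.69 ± 0.51, edgeR adjusted p = 0.000141). SOT17, of the same step, read 1.87, 5.50 and 4.34 CPM against 0.413, 0.588, 0.340 and 0.309 CPM (log2 difference 3.23 ± 1.03, edgeR adjusted p = 0.0351). MYB28, the main regulator of the pathway, read 1.52, 7.66 and 3.50 CPM against 0, 0.0535, 0 and 0 CPM, from 435 counts in the NAC57 line and 2 in the CVP2-DBOX line, a ratio of 342-fold (95% exact counting interval 94.0 to 2831) (edgeR adjusted p = 0.00907). Its relative MYB76 had 0 reads against 56 and was at least 11.9-fold lower (edgeR adjusted p = 0.00935). CYP79F1, which starts the core pathway, read 0.173, 0 and 0.0834 CPM against 0.593, 0.321, 2.43 and 1.80 CPM (log2 difference -3.88 ± 1.03, edgeR adjusted p = 0.0171). Leaving out single libraries ended the calls of SOT17 (without NAC57 2 or 4 or CVP2-DBOX 1, 2, 3 or 4, log2 2.90 to 3.51) and CYP79F1 (without NAC57 2 or 4, log2 -3.87 to -3.30). Most levels were a few CPM or less.

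Of 10 genes of phosphate transport and sensing, 3 rose (30.0%, against 11.0% of all genes), none fell and 7 did not pass. PHO2, which marks phosphate transporters for degradation, read 13.5, 24.2 and 37.4 CPM against 11.8, 5.11, 5.95 and 11.8 CPM (log2 difference 1.53 ± 0.45, edgeR adjusted p = 0.0234). PAP17, an acid phosphatase, read 1.04, 2.60 and 4.06 CPM against 1.21, 0.909, 0.558 and 1.06 CPM (log2 difference 1.46 ± 0.45, edgeR adjusted p = 0.0294), and its lines overlapped. IPS1, a noncoding RNA induced by phosphate starvation, had 11 reads against 0 and was at least 5.76-fold higher (edgeR adjusted p = 0.00910). The calls ended for PHO2 (without NAC57 2 or 4 or CVP2-DBOX 2 or 3, log2 1.13 to 1.56) and PAP17 (without NAC57 2 or 4 or CVP2-DBOX 3 or 4, log2 0.96 to 1.52), both also with RLE scaling and with the replicate block. That of PAP17 ended in the fit of the 7 libraries too (edgeR adjusted p = 0.0599).

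Wounding and stress genes, a check on the handling of protoplasts, gave 2 genes that rose (9.52%) and 1 that fell (4.76%) of 21, near the background, with a median of 0.10 whose sign changed between alternatives (-0.17 to 0.37). DIN10, a raffinose synthase family gene induced by darkness and sugar starvation, read 49.9, 75.8 and 88.2 CPM against 14.9, 11.6, 11.1 and 10.4 CPM (log2 difference 2.57 ± 0.28, edgeR adjusted p = 1.58e-05). AOX1A, the mitochondrial alternative oxidase, read 12.2, 22.9 and 12.9 CPM against 12.0, 9.04, 9.81 and 8.95 CPM (log2 difference 0.68 ± 0.21, edgeR adjusted p = 0.0314). JAZ8, a repressor of jasmonate signalling, fell and read 0.208, 0.0578 and 0.0834 CPM against 1.21, 1.52, 0.728 and 0.438 CPM (log2 difference -3.05 ± 0.94, edgeR adjusted p = 0.0309). Single libraries ended the calls of AOX1A (without NAC57 2 or CVP2-DBOX 3 or 4, log2 0.33 to 0.68) and JAZ8 (without NAC57 2 or 4 or CVP2-DBOX 1 or 2, log2 -2.92 to -2.67). RLE scaling and DESeq2 ended that of AOX1A, and the replicate block ended both. Of the rest, the heat shock gene HSP70 read 274, 120.1 and 103 CPM against 86.9, 79.0, 78.9 and 67.6 CPM, highest in NAC57 1 (edgeR adjusted p = 0.135). WRKY33, a defence regulator, read 11.7, 10.3 and 7.68 CPM against 45.7, 2.81, 20.11 and 9.02 CPM, highest in CVP2-DBOX 1 (edgeR adjusted p = 0.489).

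Markers of other root cell types were low, with 1 exception. The 6 pericycle genes, of the layer that surrounds the vascular tissue, summed to 33.9, 162 and 145 CPM in NAC57 1, 2 and 4 and to 4.60 to 9.15 CPM in the CVP2-DBOX libraries. That sum came from PHO1, a phosphate exporter that loads the xylem, at 30.6, 148 and 125 CPM against 8.23, 3.85, 3.04 and 2.63 CPM (log2 difference 4.51 ± 1.12, edgeR adjusted p = 0.0101), and from HKT1, a sodium transporter, at 2.74, 12.3 and 16.6 CPM against 0.438, 0.160, 0.510 and 0.516 CPM (log2 difference 4.69 ± 1.38, edgeR adjusted p = 0.0252). The other 4 were under 1 CPM on average in both lines, such as SKOR at 0.243, 0.347 and 0.946 CPM against 0.490, 0.401, 0.0728 and 0.593 CPM. Of the 6, 2 rose (33.3%, against 11.0% of all genes) and 4 did not pass, and the call of HKT1 ended without NAC57 2 or 4 or CVP2-DBOX 1, 2, 3 or 4 (log2 4.20 to 4.82). NAC57 1 lay well below NAC57 2 and 4 in this list, as it did in SWEET11 and SWEET12, and the part of pericycle cells in these results was not tested.

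Xylem, endodermis, epidermis and root cap markers gave 0 calls each in edgeR. The 19 xylem genes summed to 9.74 to 12.8 against 10.5 to 39.1 CPM, with 0 higher and 2 lower at an unadjusted p below 0.05, 0 and 1 in DESeq2 and 0 and 2 in limma voom. VND1, VND6 and TED6 had 0 reads in the NAC57 line and MYB83 had 0 in the CVP2-DBOX line. CESA4, of the secondary wall, read 3.74, 4.22 and 4.31 CPM against 3.22, 4.76, 4.86 and 3.04 CPM. CESA7, of the same wall, read 2.49, 0.723 and 2.31 CPM against 1.52, 5.54, 2.65 and 2.24 CPM. ACL5, a thermospermine synthase of vessel precursors, read 1.56, 2.78 and 0.306 CPM against 3.35, 26.0, 8.38 and 9.49 CPM. The 11 endodermis genes summed to 13.1 to 18.0 against 4.25 to 6.44 CPM, ranges that did not overlap, with 0 higher and 1 lower at an unadjusted p below 0.05, none in DESeq2 and 2 higher in limma voom. CASP2, which helps build the Casparian strip, read 2.84, 1.24 and 2.31 CPM against 1.39, 0.508, 0.996 and 0.928 CPM. SCR, a regulator of the layer, read 0.866, 9.11 and 0.974 CPM against 0, 4.39, 0.850 and 0.541 CPM, mostly from NAC57 2 and CVP2-DBOX 2. CYP86A1 and GPAT5, of suberin synthesis, had 0 reads in the NAC57 line.

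The 11 epidermis and root hair genes summed to 19.1 to 36.0 against 13.5 to 16.5 CPM, with 1 higher and 0 lower at an unadjusted p below 0.05, none in DESeq2 and 1 higher in limma voom. CPC, a regulator of the hair pattern, read 14.7, 13.0 and 17.2 CPM against 9.67, 11.2, 6.29 and 5.52 CPM. GL2, of the same network, read 1.70, 2.98 and 0.111 CPM against 5.08, 1.04, 4.08 and 5.85 CPM. EXPA7, an expansin of growing root hairs, read 0, 0 and 1.81 CPM against 0, 0.0802, 0.0486 and 0.0516 CPM. The 4 root cap genes summed to 0.306 to 8.71 against 3.22 to 9.33 CPM, with 0 genes at an unadjusted p below 0.05 in either direction and 1 lower in both DESeq2 and limma voom. BRN1, a regulator of root cap maturation, read 0.554, 4.02 and 0 CPM against 0.0516, 6.58, 0.146 and 0.851 CPM. SMB, another, read 0, 0.781 and 0.139 CPM against 2.58, 0.0267, 0.680 and 0.464 CPM.

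In the procambium list, of the dividing vascular cells and the HD-ZIP III factors, 1 of 12 genes rose (8.33%, against 11.0% of all genes), none fell and 11 did not pass, and LHW had 0 reads in both lines. REV, an HD-ZIP III factor, read 137, 96.0 and 103 CPM against 66.1, 65.0, 82.0 and 70.1 CPM (log2 difference 0.66 ± 0.22, edgeR adjusted p = 0.0404). Its relative PHB read 60.1, 45.8 and 41.2 CPM against 64.3, 83.9, 67.7 and 54.0 CPM (edgeR adjusted p = 0.108). CNA, another, read 14.7, 13.1 and 14.7 CPM against 36.9, 48.1, 34.6 and 33.8 CPM, lower in every NAC57 library (edgeR adjusted p = 0.353). The call of REV ended with RLE scaling, with DESeq2, with the replicate block and without NAC57 1, 2 or 4 or CVP2-DBOX 1, 2 or 4 (log2 0.49 to 0.76 in the last).

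The 10 largest rises among annotated genes with a mean of at least 20 CPM and no overlap between the lines shared a pattern over the NAC57 libraries: each was lowest in NAC57 1. The summed pericycle genes were also lowest in NAC57 1, at 33.9, 162 and 145 CPM in NAC57 1, 2 and 4. They reached at most 9.15 CPM in the CVP2-DBOX libraries and 298 CPM on average in the PEAR1 line. Their part in these rises was not tested. UMAMIT20 (AT4G08290), an amino acid exporter of the MtN21/EamA family, read 14.2, 77.1 and 89.9 CPM against 0.0258, 0, 0 and 0 CPM, from 6311 counts in the NAC57 line and 1 in the CVP2-DBOX line, a ratio of 9916-fold (95% exact counting interval 1779 to 391710.0) (edgeR adjusted p = 0.000758). CLE5, a small signal peptide gene, read 71.1, 234 and 377 CPM against 0.490, 0.107, 0.486 and 0.438 CPM (log2 difference 9.20 ± 1.28, edgeR adjusted p = 0.000182). CLE2, of the same family, read 9.43, 34.6 and 41.8 CPM against 0.748, 0.160, 0.291 and 0.0516 CPM (log2 difference 6.50 ± 1.31, edgeR adjusted p = 0.00267). A second exporter of the MtN21/EamA family, SIAR1 (UMAMIT18), read 43.2, 358 and 316 CPM against 2.35, 3.13, 1.48 and 0.954 CPM (log2 difference 6.92 ± 1.37, edgeR adjusted p = 0.00245). UMAMIT22 read 23.5, 75.6 and 78.9 CPM against 0.490, 1.096, 0.583 and 0.851 CPM (log2 difference 6.29 ± 1.05, edgeR adjusted p = 0.000713).

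Enzymes of indole glucosinolate synthesis stood beside them. CYP79B3 read 15.6, 62.4 and 118 CPM against 0.206, 0.160, 0.826 and 1.06 CPM (log2 difference 6.85 ± 1.22, edgeR adjusted p = 0.00115). CYP83B1 read 16.8, 101 and 129 CPM against 0, 0, 1.36 and 2.06 CPM (log2 difference 6.58 ± 1.36, edgeR adjusted p = 0.00321). LCR68, a cysteine-rich peptide gene, reached higher levels at 235, 1072 and 1019 CPM against 7.45, 2.30, 4.54 and 4.15 CPM (log2 difference 7.39 ± 1.09, edgeR adjusted p = 0.000267), as did SBT4.12, a subtilase, at 333, 1419 and 1806 CPM against 18.3, 3.05, 6.99 and 2.66 CPM (log2 difference 7.26 ± 1.45, edgeR adjusted p = 0.00260). ST4B, a sulphotransferase, completed the list at 35.7, 148 and 79.3 CPM against 0.542, 1.79, 1.09 and 0.619 CPM (log2 difference 6.43 ± 0.91, edgeR adjusted p = 0.000213). The same genes were high in the PEAR1 line of the series, whose libraries enter neither side of this comparison: CLE5 averaged 369 CPM there and 75.4 CPM in the PEAR1 destruction-box line, SBT4.12 1918 and 567 CPM, and UMAMIT20 54.8 and 2.65 CPM. None of these 10 calls was lost when a library was left out.

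The 10 largest falls under the same rule included WAVE2 (AT1G29170, chr1:10190137-10195213 in TAIR10.1), a SCAR protein that activates actin branching. WAVE2 read 0, 0.0289 and 0 CPM against 25.9, 32.3, 26.8 and 28.0 CPM, from 1 count in the NAC57 line and 4404 in the CVP2-DBOX line, a ratio of 2803-fold (95% exact counting interval 503 to 110737) (edgeR adjusted p = 6.52e-11). In the other lines of the series its mean was 205 CPM (CALS7), 293 CPM (NAC73), 26.7 CPM (PEAR1) and 14.1 CPM (PEAR1 destruction box), so only the NAC57 line was near 0. CER4, a wax-forming acyl-CoA reductase, read 0.104, 0 and 0 CPM against 67.8, 1.52, 20.7 and 0.206 CPM from 3 counts against 3544, a ratio of 752-fold (95% exact counting interval 257 to 3648) (edgeR adjusted p = 0.00723). XTH17, a wall-remodelling enzyme, read 0.173, 0.521 and 0 CPM against 73.9, 11.4, 26.5 and 2.06 CPM (log2 difference -6.92 ± 1.88, edgeR adjusted p = 0.0168). Both were high in CVP2-DBOX 1 and 3 and low in CVP2-DBOX 4, and the voom fit of the 7 libraries called neither. Leaving out 1 library moved the fitted log2 difference of CER4 between -12.49 and -7.69.

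The other falls were steadier across the CVP2-DBOX libraries. POK2, a kinesin that places the division plane, read 26.5, 15.4 and 18.7 CPM against 161, 139, 173 and 147 CPM (log2 difference -2.94 ± 0.90, edgeR adjusted p = 0.0298). ENODL13, an early nodulin-like gene, read 16.9, 16.1 and 24.4 CPM against 198, 162, 189.9 and 184 CPM (log2 difference -3.26 ± 1.05, edgeR adjusted p = 0.0382). ICR1, a scaffold that binds active ROP GTPases, read 28.8, 28.2 and 29.3 CPM against 179, 104, 147 and 125 CPM (log2 difference -2.27 ± 0.65, edgeR adjusted p = 0.0223). VAMP726, a vesicle fusion protein, read 7.42, 7.20 and 7.57 CPM against 52.7, 32.5, 44.5 and 37.7 CPM (log2 difference -2.50 ± 0.45, edgeR adjusted p = 0.00109). HAI1, a phosphatase of abscisic acid signalling, read 4.44, 3.33 and 9.82 CPM against 46.9, 21.7, 37.5 and 32.7 CPM (log2 difference -2.56 ± 0.38, edgeR adjusted p = 0.000254). PIN4 and LAX2, described above, completed the list. Leaving out a library ended the calls of XTH17 (without NAC57 1 or 4, log2 -6.76 to -6.33), ENODL13 (without any 1 of the 7 libraries, log2 -3.47 to -3.15), POK2 (without NAC57 1, 2 or 4 or CVP2-DBOX 3, log2 -3.18 to -2.78) and ICR1 (without NAC57 1, 2 or 4, log2 -2.29 to -2.26), and not those of WAVE2, CER4, HAI1 and VAMP726.

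**Figure D4:**
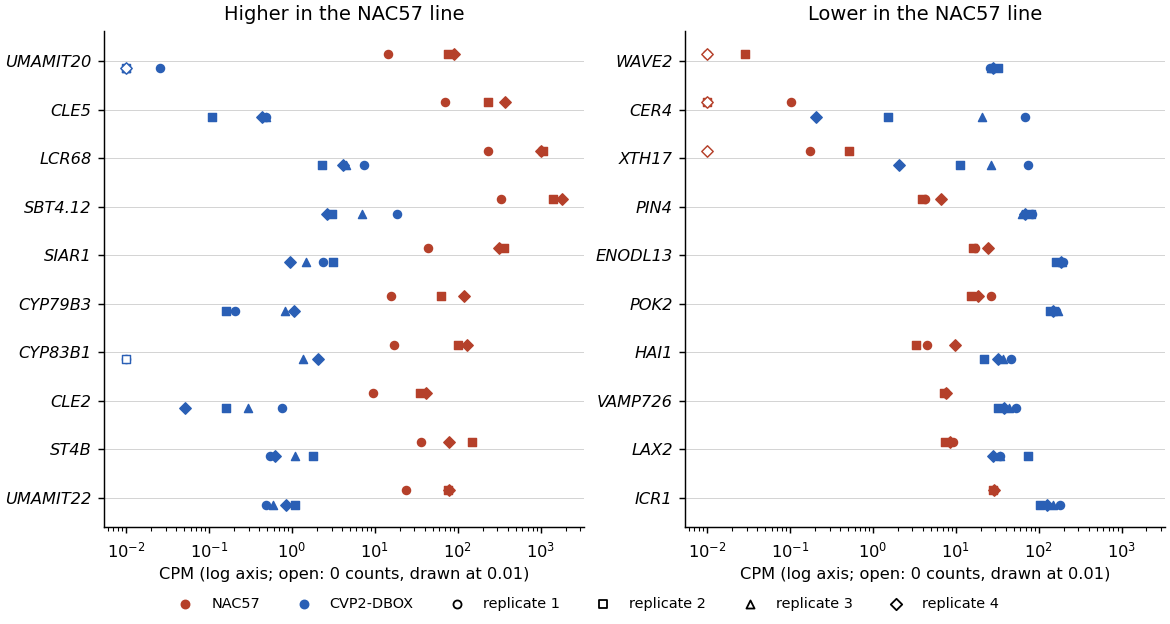
Level in each of the 7 libraries (CPM, log axis) of the 10 largest rises and the 10 largest falls, with open symbols at 0.01 for libraries with 0 counts. The lines do not overlap for any of the 20 genes, and the 10 rises are lowest in NAC57 1 within their line.

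Set among all 6 lines of the series, the NAC57 libraries lay between the CVP2-DBOX libraries and the lines labelled CALS7 and NAC73 for several lists. Mean summed levels of the G2 and M phase list were 6609 CPM in the CVP2-DBOX line, 4883 in the PEAR1 destruction-box line and 2313 in the NAC57 line. They were 929 CPM in the PEAR1 line, 418 in the NAC73 line and 286 in the CALS7 line. The PEAR1 destruction-box mean came from 2 libraries, at 6964 and 2803 CPM. Late sieve element genes summed to 2078 CPM in the CVP2-DBOX line, 3085 in the NAC57 line, 20819 in the CALS7 line and 60419.8 in the NAC73 line, so the NAC57 level was far nearer to the first. Late sieve element genes averaged 2124 CPM in the PEAR1 line and 1928 in the PEAR1 destruction-box line. Autophagy genes had the same order over the CVP2-DBOX, NAC57, CALS7 and NAC73 lines, at 367, 654, 1757 and 4708 CPM. The PEAR1 line was at 534 CPM and the PEAR1 destruction-box line at 596 CPM. The highest library of the latter, at 674 CPM, lay above the highest NAC57 library, at 663 CPM. DNA replication genes kept the level of the CVP2-DBOX line, 1258 against 1239.8 CPM, where the CALS7 line was at 145 CPM. The PEAR1 line was at 1105 CPM, the PEAR1 destruction-box line at 976 CPM and the NAC73 line at 429 CPM. The NAC73 libraries varied, at 800, 79.7, 101 and 735 CPM. Pericycle genes followed another order, with 298 CPM in the PEAR1 line and 114 in the NAC57 line. The PEAR1 destruction-box line was at 66.3 CPM, from libraries at 22.6 and 110 CPM. The CVP2-DBOX, CALS7 and NAC73 lines were at only 6.14 to 7.46 CPM. These sums over lines are descriptions with no test.

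**Figure D5:**
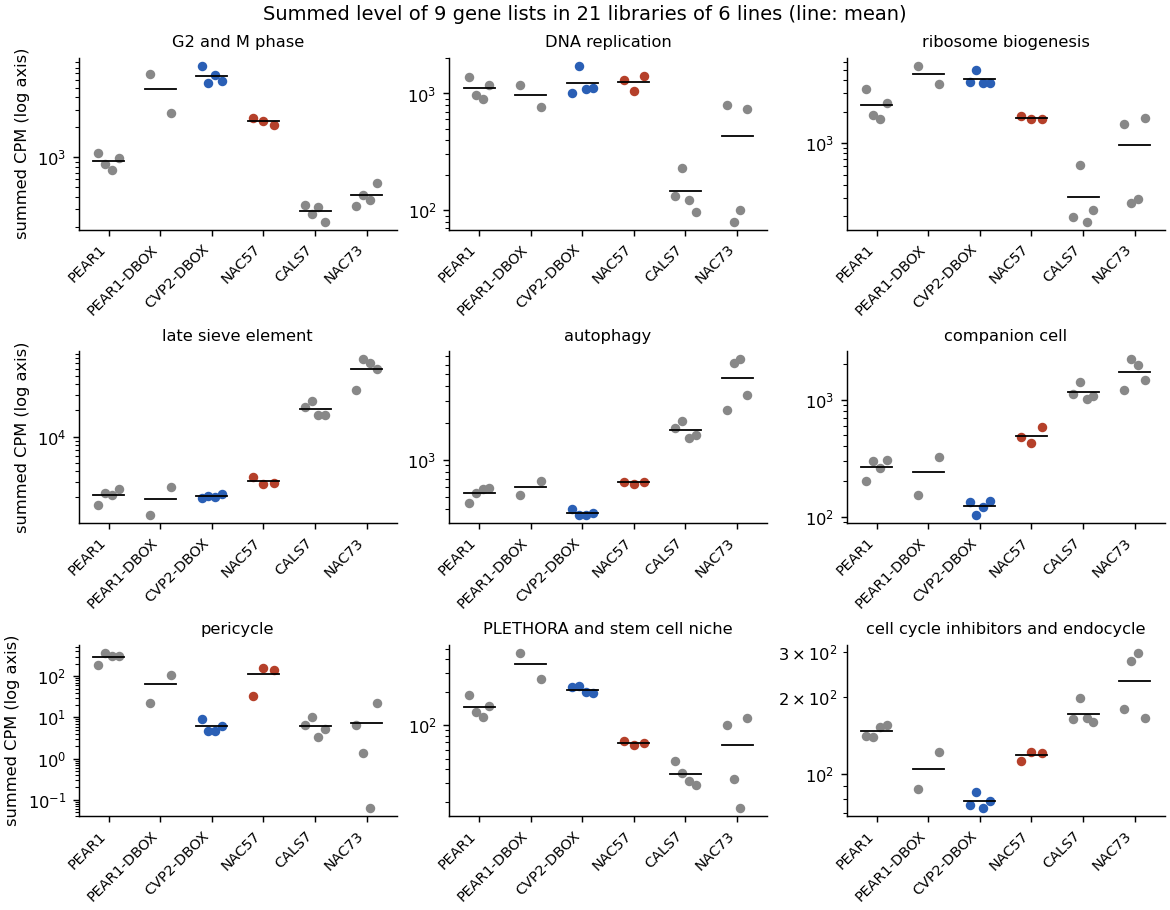
Summed level (CPM, log axis) of 9 gene lists in each of the 21 libraries, grouped by the 6 lines. The 3 NAC57 libraries lie below the 4 CVP2-DBOX libraries for G2 and M phase and above them for late sieve element, companion cell and autophagy genes.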

How the data were processed

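RNA of protoplasts sorted from roots was amplified with an ultra-low-input kit, per the labels' protocols. The submitters' processing notes name TAIR10 as the build and list featureCounts, Bowtie2 and edgeR as tools. Their roles, their versions and the strand setting were not given in the sources used here. The values deposited by the authors are raw counts per gene for 33602 genes, 1 table per library. Without strand or molecular identifiers, reads of overlapping genes and amplification copies cannot be told apart, and intervals and floors cover counting error only.

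From these counts, edgeR 4.0.16 in R 4.3.3 fitted all 21 libraries with 1 mean per line (TMM scaling, filterByExpr, robust quasi-likelihood test, common dispersion 0.377). Of 26074 genes kept, 25923 were nuclear and in scope, and Benjamini-Hochberg adjusted p-values ran over all genes kept, with 0.05 as the threshold. The 7 libraries were grouped by the line in the labels. A library with 0 counts of a gene was given a floor of 3 counts over the line, and intervals are at 95%. The script was tested on simulated data. Alternatives used RLE scaling, no filter, DESeq2 1.42.0, limma 3.58.1 voom, a replicate block, the 7 libraries alone, nuclear genes alone, no NAC73 line, and each library left out in turn. The voom fit of the 7 libraries was added after seeing the data.

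The comparison and the 24 gene lists (343 genes, 342 tested) were chosen with earlier results of these data known. Named genes were the 6 reporter genes, the 10 largest rises and falls among genes with a RefSeq symbol, no overlap between the lines and 20 CPM or more on average in one of them, up to 5 called genes per list (those of lowest adjusted p), and up to 3 members with the highest level for lists of other cell types or without calls. Other genes named were chosen after their values were seen. Locus codes were matched to the RefSeq annotation for 32835 of the 33602 genes, and promoters were read from its TAIR10.1 genome. Figures were drawn with matplotlib 3.10.9.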

Additional observations from a re-analysis of the deposited data

Results flagged for a closer look

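The ranges of 45 values over the 4 CVP2-DBOX libraries were searched for a library far from the other 3, which chance gives in about 1 of 20 groups, and 2 were found. LAX2 read 74.0 CPM in CVP2-DBOX 2, and the other libraries of the line read 27.8 to 34.2 CPM. Its call was lost without that library. ENP1 read 140.0 CPM in CVP2-DBOX 2 against 112 to 114 CPM in the others, and its call was kept without it. Outside the nuclear genes, mitochondrial genes took on average 1.60% of the counts in the CVP2-DBOX line, where every library lay above the NAC57 range of 0.374% to 0.646%. Plastid genes took on average 0.0955%, again with every library above the NAC57 range of 0.0220% to 0.0362%. The part of organelle reads in the results was not tested.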

How the results depend on the processing

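The main fit of all libraries called 2849 genes higher and 2144 lower. RLE scaling gave 1860 higher and voom 4981, while the 7 libraries alone gave 4396 in edgeR and 4809 in voom. For genes lower, DESeq2 gave 4694, voom 6990, the 7 libraries alone 4837 in edgeR and 5109 in voom, and the fit without the NAC73 line 4412. Leaving out 1 library gave 1885 to 2741 higher and 773 to 1791 lower. Fewest were called without NAC57 2, and lower calls also fell to 836 without NAC57 4, 1370 without CVP2-DBOX 4, 1447 without CVP2-DBOX 3 and 1419 without NAC57 1. Of the late sieve element genes 10 rose in voom, 11 in voom of the 7 libraries, 8 with the replicate block and 4 to 8 with 1 library left out (8 without CVP2-DBOX 2). Of the 32 genes of G2 and mitosis, 20 fell in DESeq2, 27 without the NAC73 line, 32 in voom and in both fits of the 7 libraries, and 5 to 9 with 1 library left out (5 without NAC57 2 or 4). Among the named genes the sign of CALS7, not called, turned, between -0.062 without NAC57 1 and 0.68 without NAC57 2. Of all called genes, 1 turned sign, without NAC57 2. Deviations from the line means correlated at -0.13, -0.15 and -0.10 between same-numbered libraries, and at -0.04 to 0.12 between libraries of different numbers. With 3 and 4 libraries per line these values cannot decide whether the numbers pair libraries. A replicate block gave 2534 higher and 1546 lower. The block ended the calls of CDKB2;1, KRP2, POK2, REV, HKT1, JAZ8, AOX1A, ARR3, ARR6, SOT17, PHO2 and PAP17. The cause of these shifts was not tested. The fits of the 7 libraries change the number of libraries, the genes kept, the scaling and the spread together. Depth limits genes under about 1 CPM, and 3 and 4 libraries per line limit the rest.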

Other observations

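Among gene families picked after their values were seen, and given as descriptions without a test of the family, indole glucosinolate genes rose most often. Of 12 tested, 7 rose and 0 fell (58.3% higher, against 11.0% of all nuclear genes), with a median difference of 3.69. GSTF10, a glutathione transferase, read 160.1, 465 and 502 CPM against 63.2, 29.2, 39.6 and 33.4 CPM (log2 difference 3.18 ± 0.43, edgeR adjusted p = 0.000120). CYP79B2, which makes the indole intermediate from tryptophan, read 16.6, 94.1 and 104 CPM against 0.0258, 0.562, 3.64 and 6.55 CPM (log2 difference 4.73 ± 1.46, edgeR adjusted p = 0.0312). SOT16, a sulphotransferase of the last step, read 11.2, 61.7 and 68.5 CPM against 2.19, 3.10, 2.28 and 2.66 CPM (log2 difference 4.20 ± 0.70, edgeR adjusted p = 0.000674). NAC57 1 was the lowest library of its line for all 3, as it was for the summed pericycle genes (33.9 against 162 and 145 CPM), which averaged 298 CPM in the PEAR1 line. Their part was not tested.

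Of 41 UMAMIT transporter genes tested, of 44 annotated, 12 rose (29.3%) and 2 fell (4.88%), where 11.0% of all nuclear genes rose and 8.27% fell. UMAMIT28 read 9.56, 53.1 and 48.8 CPM against 0.696, 0.588, 0.267 and 0.412 CPM (log2 difference 6.23 ± 1.39, edgeR adjusted p = 0.00520). Of 27 CLE peptide genes tested, of 30 annotated, 7 rose (25.9%) and 1 fell (3.70%). CLE41, whose peptide restrains xylem formation in the vascular stem cells, read 121, 89.8 and 114 CPM against 45.7, 44.0, 45.3 and 44.7 CPM (log2 difference 1.27 ± 0.26, edgeR adjusted p = 0.00275), and the lines did not overlap. Of 15 SWEET sugar transporter genes tested, of 17 annotated, 3 rose and 3 fell (20.0% each). The 3 that fell, SWEET9, SWEET4 and SWEET15, had 0 reads in the NAC57 line and less than 1 CPM on average in the CVP2-DBOX line.

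The near absence of WAVE2 reads in the NAC57 line was not shared by the genes before it on chromosome 1. AT1G29160, the nearer, averaged 13.1 against 4.57 CPM (log2 difference 1.52, edgeR adjusted p = 0.234). ATS9, a proteasome subunit gene, averaged 264 against 274 CPM (log2 difference -0.06, edgeR adjusted p = 0.803).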
